A study of Homo sapiens with 12 samples.

Results

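CXCR4, CCL2 and 3 related genes of chemokine signalling were followed in differentiating SH-SY5Y cells, a human neuroblastoma cell line that is a subclone of SK-N-SH. The 5 genes were taken by name (CXCR4, ACKR3, CXCL12, CCL2 and CX3CL1) from the 55765 gene symbols of the count files, and all 5 were found there. Each of the 12 libraries was made from total RNA depleted of ribosomal RNA, and each of the 4 groups held 3 libraries. All cells received all-trans retinoic acid (ATRA), which makes these cells extend neurites, at 10 μM for 7 days. In the co-treatment experiment, treated cells had H2O2 throughout those 7 days and control cells had ATRA alone. In the pre-treatment experiment, treated cells had H2O2 for 72 h before ATRA was started, and control cells had no H2O2. The dose of H2O2 is 10 mM in the deposited design and 10 μM in the methods of the study, so it is not settled here. A single cell line without other cell types was used, and the sources do not say whether replicates were separate cultures grown on different days, so p-values measure only the spread between these libraries.

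The depth per library, as reads on genes, was 27576276 to 98287391. Pre-treatment control replicates 1 and 2 stood apart, with 0.7997 and 0.830 reads outside annotated genes for each read on a gene. That figure was 0.200 in control replicate 3 and 0.263 to 0.462 in the other 9 libraries. The clustering shown in the study leaves out control replicate 3. Pre-treatment results are therefore given over all 6 libraries, as labelled, and over the 5 libraries without control replicate 3. All results over the 5 libraries rest on control replicates 1 and 2, and the part of their reads outside genes was not tested. Of 8 markers of noradrenergic neuroblastoma, the summed level was 1404 to 3179 CPM (counts scaled to library size with TMM factors) across the 12 libraries, while TH, the enzyme that makes the precursor of dopamine, had 1 to 16 reads. Markers of white blood cells summed to 1.63 to 3.69 CPM (10 genes) and those of endothelium to 1.061 to 2.05 CPM (5 genes).

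Chemokines are small secreted proteins that guide moving cells, and most of them act through receptors coupled to G proteins. CXCL12 is the ligand of CXCR4, and ACKR3 binds the same ligand without classical G protein signalling and removes it from the surroundings. The pair CXCL12 and CXCR4 guides neural crest cells, interneurons and haematopoietic cells, and CXCR4 has been studied in neuroblastoma for its link with spread to bone marrow. CCL2 attracts monocytes through CCR2, and its gene is a classical target of NF-kB and of oxidative and inflammatory signals. CX3CL1, called fractalkine, is made by neurons as a membrane protein with a chemokine domain on a stalk, is shed by ADAM10 and ADAM17, and binds CX3CR1 on microglia.

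CXCR4 lies on chromosome 2 of hg19, from 136871919 to 136876747 on the minus strand. Bases upstream of its transcription start are printed here from RefSeq (GRCh38.p14, chr2:136118150-136118399, minus strand), because CXCR4 was the member with the highest level and the only one called lower. The table of promoters holds 3 starts of CXCR4, of which the most upstream is shown, 5′ to 3′, with capitals at GC boxes, the NRF1 motif and the TATA boxes.
CXCR4 promoter: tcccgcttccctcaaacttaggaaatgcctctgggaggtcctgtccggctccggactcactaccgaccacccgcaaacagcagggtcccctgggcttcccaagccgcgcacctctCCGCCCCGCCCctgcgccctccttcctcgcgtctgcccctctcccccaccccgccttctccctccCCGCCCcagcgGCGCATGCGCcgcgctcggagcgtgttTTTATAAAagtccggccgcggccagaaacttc
Motifs were searched on both strands of the 250 bases. The GC box, spelled GGGCGG, matched at 3 places that begin 135, 130 and 70 bases upstream of the start, and the first 2 of these overlap. It was present in 42.6% of 35116 promoter windows of the same length. The motif of NRF1, a factor of nuclear genes for mitochondria, was spelled GCGCA and GCGC with any base between them, and matched once, 59 bases upstream, as it did at least once in 5.07% of windows. TATAAA, the TATA box, matched at 32 and 30 bases upstream on opposite strands, with overlap, and 10.7% of windows held it. Neither TGANTCA (AP-1, 6.57% of windows) nor GGGA and CC with any 4 bases between them (NF-kB, 22.6% of windows) was found in these letters. The window was 68% G and C, against a median of 58%. CXCL12 has an entry in the same table, which is not printed because its reads were too few for a comparison, and the entries for ACKR3, CCL2 and CX3CL1 are missing.

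The other members lie on hg19 at chromosome 2, 237476430 to 237490997 (ACKR3, plus strand), chromosome 10, 44865613 to 44881941 (CXCL12, minus strand), chromosome 17, 32582293 to 32584227 (CCL2, plus strand) and chromosome 16, 57406389 to 57418956 (CX3CL1, plus strand). No annotated gene overlaps any of the 5. Levels between genes were compared per kilobase of exon. Over the 12 libraries, CXCR4 had a mean level of 16.3 CPM per kb, CCL2 4.69, CX3CL1 1.74 and CXCL12 0.0196 CPM per kb. Most of their relatives had few reads. Of 48 chemokine ligand genes, 18 had no read in any library, 36 had at most 10 reads in all 12 libraries together, and CCL2 and CX3CL1 were the only 2 with at least 10 reads in each library. Of 23 receptor genes, 4 had at least 10 reads in each library (CXCR4, CXCR6, CCR10 and ACKR1, which the files call DARC), and CXCR4 was the only 1 with at least 100.

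Next after CXCR4, CX3CL1 and CCL2 in mean CPM came ACKR1, a scavenger of chemokines on red cells and venules, and CXCR6, the receptor of CXCL16. Their mean levels were 1.16 and 0.286 CPM per kb. They were followed by CCR10, a receptor of skin-homing T cells, with 0.301 CPM per kb, by CXCL16 with 0.199 and by ACKR4, another scavenger, with 0.126 CPM per kb. CXCR6, CCR10, CXCL16 and ACKR4 lie across genes on the opposite strand (FYCO1, CNTNAP1, MED11 with ZMYND15, and ACAD11). As the strand setting of the counting is not stated, their reads cannot be told apart from reads of those genes. The receptors that pair with the ligands were scarce: CCR2, which binds CCL2, had 9 reads in the 12 libraries, all in pre-treated cells (4, 4 and 1), and CX3CR1, which binds CX3CL1, had 27 reads in 7 libraries. These 2 genes were picked for their ligands after their values were seen. The genes next to CCL2 on chromosome 17 were silent at this depth as well, with no read for CCL1, CCL7, CCL8 and CCL13 and 1 read for CCL11, where 0 of 686117187 reads allows up to 0.00538 CPM (95% Poisson limit, counting error only).

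**Figure D1:**
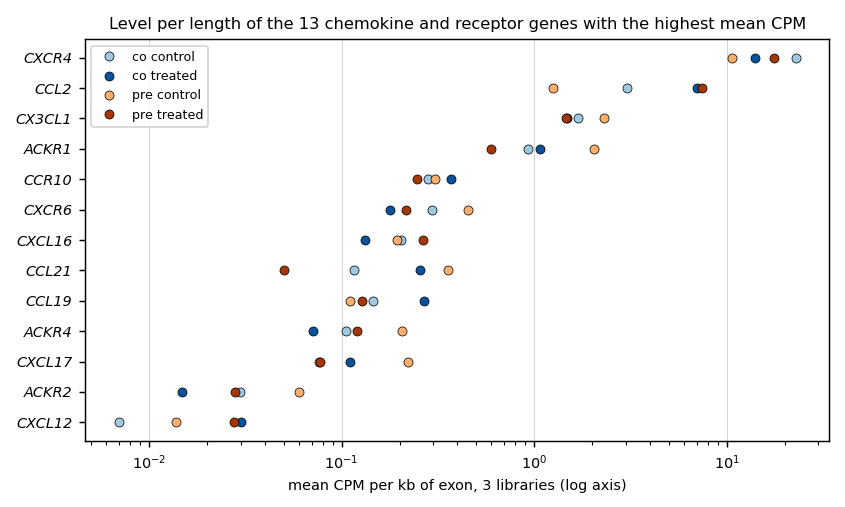
Mean CPM per kb of exon in each of the 4 groups (colours, 3 libraries each, log axis) for the 13 chemokine ligand and receptor genes with the highest mean CPM, ordered by level per length. CXCR4, CCL2 and CX3CL1 lead, with means over 12 libraries of 16.3, 4.69 and 1.74 CPM per kb, and ACKR1 follows with 1.16.

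CXCR4 transcripts fell when H2O2 was present during differentiation. Control replicates 1 to 3 of the co-treatment experiment had 59.9, 68.6 and 70.1 CPM, and treated replicates 1 to 3 had 43.4, 38.8 and 40.7 CPM. The highest treated library lay below the lowest control library, and the treated libraries were close to each other. The mean fell from 66.2 ± 5.48 to 40.9 ± 2.31 CPM (SD, n = 3 in each group), a log2FC of -0.69 (standard error 0.12, 0.618-fold, adjusted p = 0.0231, edgeR's quasi-likelihood test). The call, at an adjusted p below 0.05 and an absolute log2FC above 0.6, depended on having all libraries. It was held without control replicate 1 (adjusted p = 0.00412) and lost without control replicate 2 (0.148), control replicate 3 (0.0641) or treated replicate 1 (0.0616), 2 (0.108) or 3 (0.245), while the log2FC stayed between -0.76 and -0.65. In bulk RNA, fewer CXCR4 transcripts per cell and fewer cells that hold them cannot be told apart. The summed level of the 8 noradrenergic neuroblastoma markers was 2152 to 3088 CPM in control and 1641 to 2246 CPM in treated cells, and the log2FC was negative for 7 of 7 tested. None of the 7 was called by edgeR's quasi-likelihood test, DESeq2 or limma-voom, and 3 had an unadjusted p under 0.05 in the first of these. Their part in the CXCR4 and CCL2 results was not tested.

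After pre-treatment, CXCR4 was uneven in both groups. The controls had 20.6, 27.1 and 45.4 CPM, and the treated libraries had 33.1, 32.7 and 87.1 CPM. Control replicate 3 lay above treated replicates 1 and 2, so the groups overlapped, and treated replicate 3 had the highest level of all 12 libraries. Over the 6 libraries the means were 31.0 ± 12.9 CPM in control and 50.97 ± 31.3 CPM in treated cells (SD, n = 3), with a log2FC of 0.71 (standard error 0.44, adjusted p = 0.571, edgeR's quasi-likelihood test). Without treated replicate 3 that log2FC was 0.08 (adjusted p = 0.942). Over the 5 libraries the control mean was 23.9 ± 4.58 CPM (SD, n = 2), and the log2FC was 1.12 (standard error 0.41, adjusted p = 0.0773), which did not pass the test. The groups did not overlap over these 5 libraries for CXCR4, CCL2 and CX3CL1, 3 of the 4 members tested there, but 27.9% of all genes tested were higher and 29.9% lower without overlap. Here too treated replicate 3 set the size, since the log2FC without it was 0.46 (adjusted p = 0.0491, below the threshold of 1 on the log2FC). The controls with low CXCR4 were replicates 1 and 2, which had 0.7997 and 0.830 reads outside genes per read on a gene, and the part of this difference in the result was not tested.

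ACKR3, the decoy receptor for the same ligand, had 1 read in the 12 libraries, in pre-treatment control replicate 3. In the other 11 libraries it had none, which allows up to 0.0305 to 0.109 CPM in a library (3 counts of the total, before TMM scaling, counting error only). It entered no test. CXCL12, the ligand, had 88 reads over 10 of the 12 libraries. By replicate, there were 0, 6 and 0 reads in co-treatment controls and 5, 10 and 11 in co-treated cells. Pre-treatment controls had 8, 1 and 6 reads, and pre-treated cells had 11, 8 and 22. Each co-treated library exceeded each co-treatment control in CPM (0.161 to 0.214 against 0 to 0.128), whereas the pre-treatment groups overlapped. Summed over a group, co-treatment controls had 0.0451 CPM (95% Poisson interval 0.0166 to 0.0982) and co-treated cells 0.184 CPM (0.120 to 0.270). The intervals cover counting error only. CXCL12 was too scarce for the co-treatment test and for the pre-treatment test over 6 libraries. Tested without a filter on low counts, its log2FC after co-treatment was 1.98 (standard error 1.09, adjusted p = 0.693, edgeR's quasi-likelihood test). Over the 5 pre-treatment libraries it passed the filter, with a log2FC of 1.02 (standard error 0.89, adjusted p = 0.420).

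CCL2 transcripts rose after co-treatment. Control replicates 1 to 3 had 7.91, 4.28 and 5.42 CPM, and treated replicates 1 to 3 had 13.3, 13.8 and 13.7 CPM. All co-treated libraries lay above all controls, and they differed from each other by less than the controls did. The mean was 5.87 ± 1.86 CPM in control and 13.6 ± 0.290 CPM in treated cells (SD, n = 3). The log2FC of CCL2 was 1.21 (standard error 0.21, 2.32-fold, adjusted p = 0.0254, edgeR's quasi-likelihood test). CCL2 and CXCR4 were thus 2 of the 3 members tested that were called after co-treatment, against 0.598% of all 22089 genes tested (0.335% higher and 0.263% lower). The members were chosen with earlier results of these data known, so this share is no test of them as a set. The groups of CCL2 and of CXCR4 also did not overlap, which held for 6.66% of genes tested in the upward and 7.31% in the downward direction. The call of CCL2 was held without control replicate 1 (adjusted p = 0.000582) and lost without control replicate 2 (0.1104), control replicate 3 (0.0642) or treated replicate 1 (0.0691), 2 (0.1104) or 3 (0.160), with a log2FC of 1.02 to 1.495.

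**Figure D2:**
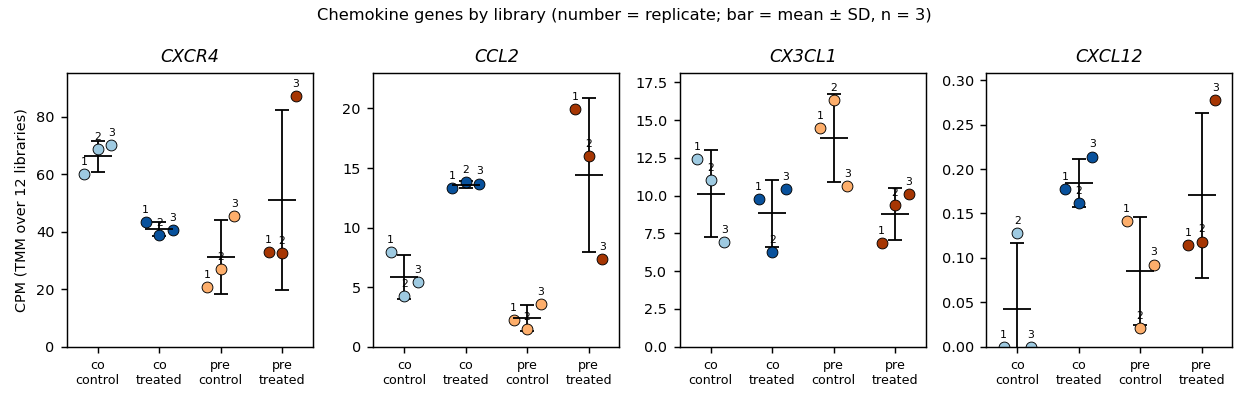
CPM (scaled with TMM factors over 12 libraries) of CXCR4, CCL2, CX3CL1 and CXCL12 in each library of the 4 groups, with the replicate number beside each point and the mean ± SD (n = 3) as a bar, cut at 0 for CXCL12. CXCR4 was lower and CCL2 higher in all 3 co-treated libraries than in their controls, and pre-treated replicate 3 had the highest CXCR4 (87.1 CPM) and the lowest CCL2 (7.35 CPM) of its group.

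In the pre-treatment experiment, CCL2 was higher in treated cells by a larger factor. The controls had 2.24, 1.46 and 3.55 CPM and the treated libraries 20.0, 15.99 and 7.35 CPM. The lowest treated library, replicate 3, lay above the highest control, so the groups did not overlap, as for 8.45% of genes tested. Over the 6 libraries the mean was 2.41 ± 1.056 CPM in control and 14.4 ± 6.45 CPM in treated cells (SD, n = 3), with a log2FC of 2.57 (standard error 0.45, 5.96-fold) and an adjusted p of 0.242 in edgeR's quasi-likelihood test. That test called no member of the 3 it could test, and 0.0242% of 24743 genes. CCL2 and CX3CL1 had an unadjusted p under 0.05, 2 of the 3 members, as did 2776 of all genes. CCL2 was called over the same 6 libraries by edgeR's exact test (adjusted p = 1.03e-04) and by DESeq2 (4.92e-06) but not by limma-voom (0.332). Over the 5 libraries, the control mean was 1.85 ± 0.550 CPM (SD, n = 2) and CCL2 was called with a log2FC of 2.99 (standard error 0.44, 7.94-fold, adjusted p = 0.00349, edgeR's quasi-likelihood test). It was 1 of the 4 members tested that was called there, against 11.2% of 26350 genes (2.98% higher and 8.23% lower), with DESeq2 and limma-voom calling it too. The controls in this fit had 0.7997 and 0.830 reads outside genes per read on a gene. The treated libraries had 0.343 to 0.462. The part of this difference in the CCL2 call was not tested. The adjusted p was 0.000556 to 0.0121 with 1 treated library left out. Without control replicate 1 or 2 it was 0.0157 and 0.0395, but those fits hold 1 control library, which is assumed to vary like the treated libraries. CCL2 was among 226 of 24407 genes (0.926%) whose treated libraries lay above the controls without overlap in both experiments.

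Other cell types that make CCL2 were looked for through their markers. Summed markers of white blood cells had 1.80 to 3.69 CPM in pre-treatment controls and 2.36 to 2.65 CPM in pre-treated cells. Single markers went both ways. Of 5 tested over the 5 libraries CD14 was called, and lower, as were 8.23% of genes. It had 1.17, 1.46 and 0.524 CPM in controls and 0.518 to 0.669 CPM in pre-treated cells. PTPRC had 0 to 0.139 CPM in controls and 0.157 to 0.192 CPM in pre-treated cells, without overlap, as for 8.45% of genes tested over 6 libraries. Of 7 fibroblast markers, COL3A1 was higher in pre-treated cells over the 6 libraries (log2FC 2.44, adjusted p = 0.0442, edgeR's quasi-likelihood test), and DCN over the 5 libraries (2.95, adjusted p = 0.0131). The summed level of the 7 was 201 to 233 CPM in pre-treatment controls and 221 to 277 CPM in pre-treated cells. PDGFRB, a large part of that sum, went the other way. It had 171, 149 and 124 CPM in pre-treatment controls and 106, 102 and 81.6 CPM in pre-treated cells. These did not overlap, as for 7.93% of genes tested over the 6 libraries. LUM and THY1 overlapped over the 6 libraries. Over the 5 libraries both were higher in pre-treated cells without overlap, as were 27.9% of genes tested. COL1A2, a chain of type I collagen, had 1 read in each pre-treatment control and 19, 5 and 20 reads in pre-treated cells (0.0740 to 0.253 CPM), without overlap. It was too scarce for the test over 6 libraries. Of genes tested, 8.45% were higher without overlap over the 6 libraries and 27.9% over the 5. COL1A1, the other chain, had 0.185 to 1.16 CPM in pre-treatment controls and 0.376 to 0.636 CPM in pre-treated cells, with overlap over the 6 libraries. Over the 5 libraries it was lower without overlap, as were 29.9% of genes tested. All 7 fibroblast markers had an unadjusted p under 0.05 there (edgeR's quasi-likelihood test), 5 with a positive and 2 with a negative log2FC. That level was reached by 10671 of 26350 genes. An adjusted p below 0.05 was reached by 4 of the 7, and by 26.1% of genes. The part of these genes in the CCL2 result was not tested.

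The 8 markers of noradrenergic neuroblastoma summed to 2135 to 3179 CPM in pre-treatment controls and 1404 to 1821 CPM in pre-treated cells, without overlap. No share over all genes was computed for such a sum. Over the 6 libraries none of 7 tested was called by edgeR's quasi-likelihood test (3 had an unadjusted p under 0.05, and DESeq2 called 1). Over the 5 libraries 2 of 7 were called lower, DBH, the enzyme that makes noradrenaline (log2FC -1.72, adjusted p = 0.0259), and GATA3, a factor of sympathetic neurons (-1.44, adjusted p = 0.0126). Of all 26350 genes tested there, 8.23% were called lower. GATA3 had 30.0 CPM in control replicate 3, within the 24.9 to 59.996 CPM of pre-treated cells. The part of these markers in the CCL2 and CXCR4 results was not tested.

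CX3CL1, the membrane-bound chemokine, showed no difference past the test after co-treatment. The controls had 12.4, 11.04 and 6.94 CPM and the treated libraries 9.77, 6.26 and 10.4 CPM. The groups overlapped, with means of 10.1 ± 2.85 and 8.82 ± 2.24 CPM (SD, n = 3) and a log2FC of -0.21 (standard error 0.24, adjusted p = 0.904, edgeR's quasi-likelihood test). In the pre-treatment experiment, the controls had 14.5, 16.3 and 10.6 CPM and the treated libraries 6.83, 9.37 and 10.1 CPM. All treated libraries lay below all controls, as for 7.93% of genes tested, but control replicate 3 and treated replicate 3 were nearly level. The means over 6 libraries were 13.8 ± 2.91 and 8.77 ± 1.71 CPM (SD, n = 3), with a log2FC of -0.65 (standard error 0.24, adjusted p = 0.365). Over the 5 libraries the log2FC was -0.79 (standard error 0.20, adjusted p = 0.0220), which passed the adjusted p, as did 26.1% of genes (12.8% lower), but not the threshold of 1 on the log2FC. That p was above 0.05 without control replicate 1 (0.0614), control replicate 2 (0.144), treated replicate 1 (0.0729) or treated replicate 2 (0.0560). Its sheddases, ADAM10 and ADAM17, had 132 to 181 CPM and 101 to 141 CPM across the 12 libraries and were called in no comparison, with log2FC values of 0.17 and -0.12 after co-treatment and 0.06 and 0.14 over the 6 pre-treatment libraries.

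The difference between the log2FC of the experiments (pre-treatment minus co-treatment) was tested in a fit with 1 estimate of the spread. The experiments also differed in the length of exposure (72 h against 7 days) and had separate controls, so timing alone was not tested. CXCR4 was listed in the study for opposite directions in these libraries, so its test is not independent of that choice. Over all 12 libraries none of the 4 members tested was called, with differences of 1.39 for CXCR4 (standard error 0.48, adjusted p = 0.511), 1.34 for CCL2 (0.51, adjusted p = 0.526), -0.48 for CX3CL1 (0.38, adjusted p = 0.704) and -1.06 for CXCL12 (1.39, adjusted p = 0.838, edgeR's quasi-likelihood test). CXCR4 and CCL2 had an unadjusted p under 0.05 there (0.0126 and 0.0200, edgeR's quasi-likelihood test), as did 2183 of all 24407 genes. That test called 0.0287% of these genes (0.0246% higher and 0.0041% lower), and DESeq2 and limma-voom called no member either. Over the 11 libraries without pre-treatment control replicate 3, 2 of the 4 were called, against 8.02% of 25668 genes (3.32% higher and 4.7% lower). As the members were chosen with earlier results of these data known, this share is no test of them as a set. The difference was 1.76 for CXCR4 (standard error 0.44, adjusted p = 0.0284) and 1.72 for CCL2 (0.48, adjusted p = 0.0424), so that CXCR4 fell after co-treatment and had a positive log2FC after pre-treatment, and CCL2 was higher after both but more so after pre-treatment. CX3CL1 (-0.63, adjusted p = 0.257) and CXCL12 (-1.01, adjusted p = 0.693) were not called.

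Both calls were close to the threshold. For CXCR4 the adjusted p was above 0.05 in 6 of 11 fits that left out a library: co-treatment control replicates 2 (0.0618) and 3 (0.0622), co-treated replicates 2 (0.0591) and 3 (0.0661), and pre-treatment control replicates 1 (0.0758) and 2 (0.0682). Without pre-treated replicate 3 the CXCR4 difference was 1.13 (adjusted p = 0.00692). The CCL2 call was held without co-treatment control replicate 1 (0.0495) or pre-treated replicate 3 (0.00700) and lost in the other 9 of 11 fits. The adjusted p of CCL2 was 0.0526 and 0.0734 without co-treatment control replicates 2 and 3, 0.0542, 0.0749 and 0.0869 without co-treated replicates 1, 2 and 3, 0.0522 and 0.154 without pre-treatment control replicates 1 and 2, and 0.101 and 0.0783 without pre-treated replicates 1 and 2. Fits without pre-treatment control replicate 1 or 2 hold 1 library in that group, which is assumed to vary like the other groups.

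**Figure D3:**
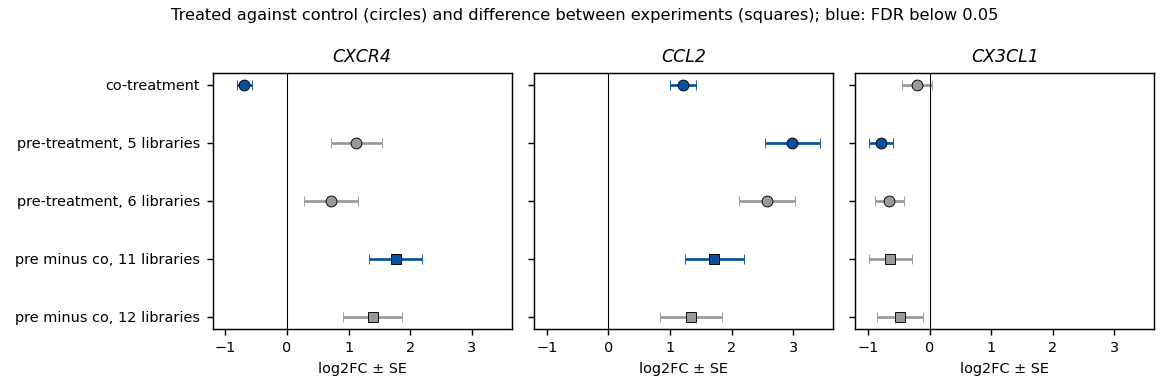
The log2FC ± SE of CXCR4, CCL2 and CX3CL1, treated against control (circles) and as the difference between experiments (squares), with blue where the adjusted p was below 0.05. CXCR4 lies on opposite sides of 0 in the experiments (-0.69 and 0.71 or 1.12), and CCL2 lies above 0 in all 5 fits.

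**Figure D4:**
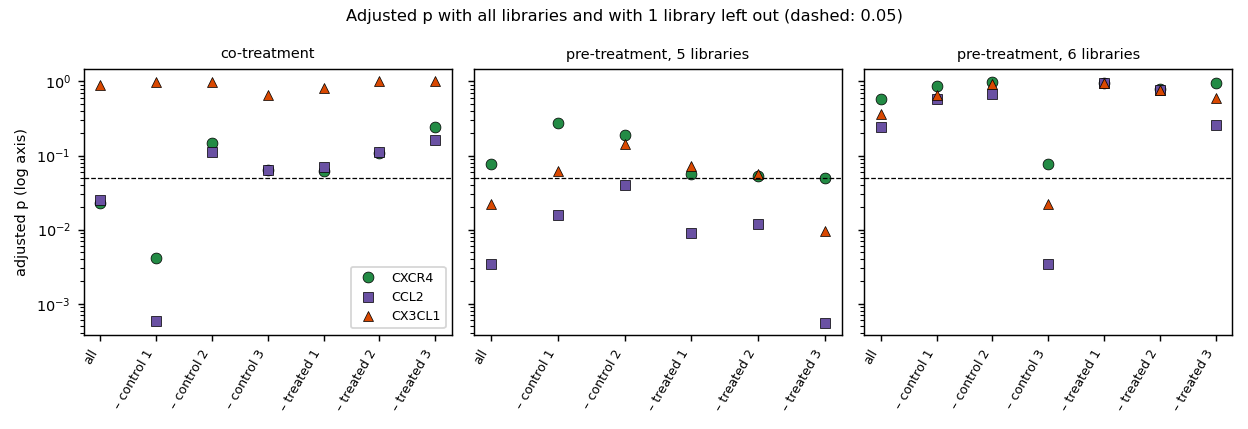
Adjusted p (log axis) of CXCR4, CCL2 and CX3CL1 with all libraries and with each library left out in turn, in the co-treatment, the 5-library and the 6-library pre-treatment comparison, with a dashed line at 0.05. CCL2 lies below the line in the fits of the 5-library comparison (up to 0.0395), of which those without control replicate 1 or 2 hold a single control library, and in the co-treatment comparison CXCR4 and CCL2 stay below it only without control replicate 1.

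In order of their means, the groups stood differently for each gene. CCL2 was lowest in pre-treatment controls (2.41 CPM), then co-treatment controls (5.87), co-treated cells (13.6) and pre-treated cells (14.4). The first 2 steps showed no overlap (exact permutation test, two-sided, p = 0.1, the smallest that 3 against 3 can give), although neither passed the fit over 12 libraries (log2FC 1.27 with adjusted p = 0.352, and 1.21 with adjusted p = 0.562, edgeR's quasi-likelihood test). For the second step, 6.66% of genes tested were higher without overlap. For the first, between the control groups, no share over all genes was computed. The treated groups of both experiments differed by 0.08 in log2FC (standard error 0.35, adjusted p = 0.974). The means of CCL2 thus lay farther apart between the control groups than between the treated groups. For CXCR4 the order was pre-treatment control, co-treated, pre-treated and co-treatment control, and for CX3CL1 it was pre-treated, co-treated, co-treatment control and pre-treatment control. No neighbours in those orders differed beyond their spread, with exact permutation p-values of 0.3 to 1. The control groups of the experiments are not neighbours for CXCR4 and did not overlap (59.9 to 70.1 CPM in co-treatment controls against 20.6 to 45.4 CPM in pre-treatment controls), with a log2FC of -1.08 (standard error 0.34, adjusted p = 0.352 over 12 libraries, edgeR's quasi-likelihood test). As the share of all genes without overlap between the control groups was not computed, this separation is no result about CXCR4. The time of treatment and anything else that differed between the experiments cannot be told apart in comparisons across them.

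A wider set of 4 lists (chemokine ligands, chemokine receptors, partners of CXCR4 in signalling and trafficking, and regulators of NF-kB and hypoxia signalling) was counted in the same comparisons. The lists were chosen with earlier results of these data known, so shares of them called are no test of the lists. After co-treatment, 3 of 59 listed genes tested were called (5.08%, against 0.598% of all genes), of which CXCR4 and CCL2 are members described above. The third was 1 of 32 partners tested, SDC2, a heparan sulphate proteoglycan that binds chemokines. It had 70.2, 79.7 and 93.9 CPM in control and 46.0, 35.5 and 36.1 CPM in treated cells, with no overlap. Its log2FC was -1.05 (standard error 0.15, adjusted p = 0.00749, edgeR's quasi-likelihood test). The median log2FC of the partners tested was -0.07, with 24 of 32 negative, against a median near 0 over all genes (-0.00095). CCL2 was the 1 ligand called of 4 tested and CXCR4 the 1 receptor of 5. No regulator of NF-kB or hypoxia signalling was called of 18 tested, and 0 of them had an unadjusted p under 0.05, as did 1801 of all 22089 genes. DESeq2 called 4 of the 59 listed genes.

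Over the 6 pre-treatment libraries none of the 4 ligands, 6 receptors, 33 partners and 19 regulators tested was called by edgeR's quasi-likelihood test, while DESeq2 called 3 of them. An unadjusted p under 0.05 was reached by 2, 1, 5 and 5 of them in that order. Over the 5 libraries 9 of 66 listed genes tested were called (13.6%), near the 11.2% of all genes, so the count is no result about the lists. Of the 9, CCL2 was the only 1 higher. The others were lower: CCL21, a lymph node chemokine, CXCR6 and ACKR1 among ligands and receptors, MIF, MMP2 and SDC3 among partners, and EPAS1 and IL1B among regulators. ACKR1 had 2.96 and 4.16 CPM in control replicates 1 and 2 and 0.919, 0.577 and 0.922 CPM in treated cells, and its log2FC was -2.10 (standard error 0.30, adjusted p = 0.00326). In control replicate 3 it had 1.11 CPM, much nearer to the treated cells. MMP2, a protease that cleaves CXCL12, had 393 and 472 CPM in control replicates 1 and 2 but 231 CPM in replicate 3, against 198 to 217 CPM in treated cells, with a log2FC of -1.02 over 5 libraries (adjusted p = 0.00159) and -0.81 over 6 (adjusted p = 0.326). Likewise MIF, another ligand of CXCR4, had 1.15 and 1.39 CPM in replicates 1 and 2, 0.139 CPM in replicate 3 and 0.126 to 0.311 CPM in treated cells. Control replicate 3 thus lay within the range of treated libraries for MIF and above it for ACKR1 and MMP2. It lay within that range also for SDC3 (34.0 against 24.8 to 36.7 CPM) and CCL21 (0.0308 against 0.0104 to 0.118 CPM), and below it for CXCR6 (0.509 against 0.585 to 1.26 CPM). It lay above it for EPAS1 (226 against 146 to 164 CPM) and IL1B (0.247 against 0.0148 to 0.0731 CPM). EPAS1, a hypoxia factor also called HIF-2 alpha, was called with a log2FC of -1.20 (adjusted p = 0.00163), and SDC3 with -1.03 (adjusted p = 0.0119). CXCR6, CCL21 and IL1B were called with -1.47, -3.39 and -2.62, and the latter 2 rest on at most 28 reads in any library. CCL21, CXCR6, MIF, MMP2 and ACKR1 have annotated genes on the opposite strand, so their counts are uncertain.

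NFKBIA, the inhibitor that NF-kB itself induces, did not pass the test for co-treatment, at a log2FC of 0.20 (adjusted p = 0.825, edgeR's quasi-likelihood test). Over the 5 pre-treatment libraries it was 0.87 (adjusted p = 0.00437), below the threshold of 1, and over the 6 libraries 0.37 (adjusted p = 0.672). Its levels were 15.2, 15.5 and 33.2 CPM in pre-treatment controls and 26.9, 26.3 and 29.7 CPM in treated cells, so control replicate 3 was above all treated libraries. HIF1A, a factor stabilised in hypoxia, had log2FC values of 0.02 after co-treatment, 0.08 over 6 and 0.24 over 5 pre-treatment libraries, none past the test. For MIF the co-treatment log2FC was 0.23 (adjusted p = 0.972).

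The genes whose log2 CPM followed each member most closely over the 12 libraries, among 24406 genes, are given as a description, since the libraries share treatment, depth and experiment. For CXCR4 these were SLC29A1 (Pearson r = 0.927), a nucleoside transporter, CTSC (0.925), a lysosomal protease, and ZNF486 (0.924). Their r was 0.850, 0.899 and 0.851 without the 2 libraries farthest from the median of CXCR4, and their Spearman rho was 0.888, 0.930 and 0.923. For CCL2 they were RDH10 (0.972), an enzyme of retinoic acid synthesis, PTRF (0.960), a coat protein of caveolae, and CPA4 (0.956), a carboxypeptidase. RDH10 had mean levels of 10.5 and 18.1 CPM in control and co-treated cells and 6.18 and 16.5 CPM in pre-treatment control and pre-treated cells, the same order of controls and treated groups as CCL2 in each experiment. Without the 2 farthest libraries the r of the 3 genes with CCL2 was 0.950, 0.906 and 0.918, with a Spearman rho of 0.909, 0.902 and 0.937. For CX3CL1 they were ABCA3 (0.940), a lipid transporter, ATP13A1 (0.933) and SEPN1 (0.932), with 0.918, 0.890 and 0.923 without the 2 farthest libraries and a Spearman rho of 0.881, 0.860 and 0.888. CXCL12 gave DDX31 (0.876), RPL21P65 (0.873) and RP11-168A11.4 (0.867), which rest on 88 reads and are not read further.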

How the data were processed

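Counts were deposited by the authors as whole reads per gene symbol for each library, unnormalized and unfiltered. By the study's methods and processing notes, FastQC 0.11.8 and cutadapt 2.10 served for quality control and trimming, HISAT2 2.1.0 for alignment (build hg19) and HTSeq 0.7.2 for counting. The strand setting and the annotation version are not given in the sources used here. A further 2 deposited tables hold the log2 fold change, mean log2 CPM, p-value and FDR of the authors' own comparisons and were not used. Between 40.03% and 59.89% of the entries of a file were reads not counted on a gene, and these were left out of library sizes.

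The 5 members and the gene lists were chosen with earlier results of these data known. The fits used edgeR 4.0.16 in R 4.3.3 (quasi-likelihood test, TMM factors, Benjamini-Hochberg adjustment over all genes tested). Genes entered a fit when their CPM reached that of 5 reads in the smallest library (0.181 CPM for co-treatment and both fits of the difference, 0.1197 CPM for pre-treatment) in 3 libraries, or 2 where pre-treatment control replicate 3 was left out. Calls needed an adjusted p below 0.05 together with a log2FC beyond 0.6 in either direction for co-treatment and beyond 1 for pre-treatment, and the adjusted p alone for the difference between experiments. Named genes were the members, every listed gene called in a comparison, the 5 other chemokine genes with the highest mean CPM, the 3 genes most correlated with each member, and NFKBIA, HIF1A, MIF, ADAM10 and ADAM17. Log2 CPM used a prior count of 2. Exon lengths and hg19 positions came from a lifted annotation in which 33181 symbols (59.5%) matched 1 gene.

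Alternatives were edgeR's exact test, DESeq2 1.42.0, limma-voom (limma 3.58.1), RLE and upper-quartile factors, library size only, no filter, filterByExpr, robust estimation, a replicate block, 1 fit over both experiments, no threshold on the log2FC and each library left out. The scripts were tested on simulated data. Replicate numbers are not said to mark a shared culture, day or batch.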

Additional observations from a re-analysis of the deposited data

Results flagged for a closer look

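For 2 members, the responses to H2O2 differed between the experiments by a test of the difference itself over the 11 libraries without pre-treatment control replicate 3. The pre-treatment log2FC minus the co-treatment log2FC was 1.76 for CXCR4 (adjusted p = 0.0284, edgeR's quasi-likelihood test) and 1.72 for CCL2 (adjusted p = 0.0424), and neither passed over all 12 libraries (adjusted p = 0.511 and 0.526). Over 12 libraries no gene of the 4 lists was called by that test, while DESeq2 called 1 listed gene. An unadjusted p under 0.05 in that test was reached by 2 ligands, 2 receptors, 4 partners and 0 regulators. These were 8 of 65 listed genes tested, beside 2183 of all 24407 genes, so the count is no result about the lists. The same test over 11 libraries called 8 of 67 listed genes (11.9%), near the 8.02% of all genes, so the count is no result about the lists. Beside CXCR4 and CCL2 these were 6 genes, with differences of 1.79 for SDC2, which binds chemokines through heparan sulphate, 1.18 for ADM, a vasoactive peptide, 1.00 for RGS4, an inhibitor of G protein signalling, 0.65 for VHL, which marks hypoxia factors for decay, -0.97 for MMP2 and -2.37 for ACKR1. SDC2 had a negative log2FC after co-treatment (-1.05) and a positive one over the 5 pre-treatment libraries (0.79, not called), the same pair of signs as CXCR4. Its pre-treated replicates 1 to 3 had 42.1, 48.7 and 88.6 CPM, with replicate 3 the highest, as for CXCR4. Pre-treatment controls of SDC2 had 30.4, 40.2 and 56.9 CPM, so control replicate 3 lay above treated replicates 1 and 2. Among fibroblast markers, COL3A1 differed by 2.38 over 11 libraries and by 2.36 over 12 (adjusted p = 0.0353), and DCN by 2.88 over 11 libraries. Of these genes, COL3A1 alone passed over all 12 libraries. These comparisons place treatments of different experiments side by side, and what else differed between the experiments cannot be told apart from the timing of H2O2.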

How the results depend on the processing

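The number of members called was 2 after co-treatment (0 to 2 with a library left out), 0 over the 6 and 1 over the 5 pre-treatment libraries (0 to 1, and 1 to 1), and 0 and 2 for the difference between experiments over 12 and 11 libraries (0 to 2 in both). Over the 4 lists the counts were 3, 0, 9, 0 and 8 in the same order, with 0 to 4, 0 to 9, 2 to 9, 0 to 8 and 2 to 20 when a library was left out. After co-treatment, library size as the only scaling called 0 members and 1 listed gene (CXCR4 -0.64, adjusted p = 0.0519; CCL2 1.25, adjusted p = 0.0524), and 1 fit over 12 libraries called 0 members (CXCR4 -0.70, adjusted p = 0.957; CCL2 1.21, adjusted p = 0.562). Over the 6 pre-treatment libraries CCL2 was the 1 member called by edgeR's exact test (2.58), by DESeq2 (2.55, with 3 listed genes), without a filter (2.58, with 2 listed genes) and in 1 fit over 12 libraries (2.55, adjusted p = 0.0113). Over the 5 libraries CXCR4 was called too, for 2 members, by edgeR's exact test (1.12, adjusted p = 0.0339), without a filter (1.09) and in 1 fit over 11 libraries (1.07, adjusted p = 0.0305), and CX3CL1 (-0.79) with no threshold on the log2FC, again for 2 members. For the difference over 12 libraries, DESeq2 called 1 listed gene, and no filter called 3 listed genes and 1 member, CXCR4 (1.41, adjusted p = 0.0134). Over 11 libraries, DESeq2 and no filter each called 15 listed genes. For the difference over 12 and over 11 libraries, the counts of all genes called by DESeq2 and without a filter are not given here. These counts of listed genes are therefore no result about the lists. Over 11 libraries, CXCR4 was the 1 member called, and CCL2 was lost, by limma-voom (CCL2 1.58, adjusted p = 0.117), with upper-quartile factors (CCL2 1.63, adjusted p = 0.0533) and with library size only (CCL2 1.504, adjusted p = 0.0693). With robust estimation 0 members were called (CXCR4 1.76, adjusted p = 0.0681, and CCL2 1.72, adjusted p = 0.0556). With a library left out, log2FC values ranged from -0.76 to -0.65 (CXCR4) and 1.02 to 1.495 (CCL2) after co-treatment, 2.27 to 2.99 (CCL2) over 6 pre-treatment libraries, 0.76 to 1.76 (CXCR4) and 1.04 to 1.72 (CCL2) for the difference over 12 libraries, and 1.13 to 2.04 (CXCR4) and 1.41 to 2.14 (CCL2) over 11. The sparse CXCL12 gave -5.40 to 0.92 there, with 0.92 without pre-treatment control replicate 1. Of all genes, 132, 6, 2952, 7 and 2058 were called in the 5 comparisons, with 307 and 308 (co-treatment) and 231 and 501 (6 pre-treatment libraries) by edgeR's exact test and DESeq2, and 443 and 300 without a filter. The cause of these changes was not tested. The correlation of residuals within a replicate number was -0.0626, -0.0733 and -0.0660 after co-treatment. It was -0.229, 0.0295 and -0.279 over the 6 pre-treatment libraries. With 3 libraries in a group the residuals are tied to each other, so these values cannot decide whether replicate numbers pair the libraries. With a replicate block, CXCR4 had log2FC values of -0.69 (adjusted p = 0.0259) after co-treatment and 0.51 (adjusted p = 0.00242) over 5 libraries, where it did not reach 1, and CCL2 1.26 and 3.32. The block left the number of members called at 2, 0, 1, 0 and 2. Depth limits ACKR3 and CXCL12.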

Other observations

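IL8, the neutrophil chemokine whose current symbol is CXCL8, was barely read, with 0.449, 0.118 and 0.101 CPM in pre-treated cells against 0 to 0.0355 CPM in pre-treatment controls and 0 to 0.122 CPM in the co-treatment experiment. It was picked after its values were seen and is given as a description.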
